A study of Mus musculus with 6 samples.

Results

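The proteasome genes of the mouse are described here through acetylation of histone H3 at lysine 27 (H3K27ac) at their ends, in hematopoietic stem cells of mice with and without Ppp2ca. The 49 genes were those RefSeq GRCm38 protein-coding genes whose whole symbol is Psm, a letter from a to g and a number. A further letter was allowed, as in Psme2b. The genes came from 21887 protein-coding genes on the autosomes and the sex chromosomes. Both symbols that only begin like a member, Psmc3ip and Psme3ip1, were left out. They comprise 15 genes of the core (8 alpha and 7 beta subunits), 17 of the regulatory cap (6 ATPases and 11 other subunits), the 3 immunoproteasome genes Psmb8, Psmb9 and Psmb10, the thymus gene Psmb11, 6 activator and inhibitor genes and 7 assembly factors.

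H3K27ac is laid down at promoters and enhancers in use. It was mapped by CUT&RUN, in which an antibody guides a nuclease to the marked chromatin and the released fragments are sequenced. The 3 knockout (KO) libraries came from mice deficient in Ppp2ca, which encodes a catalytic subunit of protein phosphatase 2A, and the 3 wild-type (WT) libraries from Ppp2ca wild-type mice, all from bone marrow. Per the series text each genotype was represented by 3 mice. No label carries an animal number, and the libraries of a genotype were treated as separate mice. The sources used here do not give the deleted part of Ppp2ca, the driver of its deletion, the strain, the age or the markers used to sort the cells. In such bulk libraries, fewer cells carrying the mark and less of the mark per cell cannot be told apart.

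The proteasome is the protease that degrades proteins tagged with ubiquitin. Its barrel-shaped core is built from stacked rings of alpha subunits, which form the gate, and beta subunits, some of which carry the proteolytic sites. A cap with a ring of ATPases and a lid of other subunits recognises, unfolds and feeds in the substrate. In blood cells and under interferon, Psmb8, Psmb9 and Psmb10 replace the catalytic beta subunits Psmb5, Psmb6 and Psmb7 and form the immunoproteasome, which produces peptides for antigen presentation. Other rings, such as those of Psme1 and Psme2, can take the place of the cap, and dedicated chaperones assemble core and cap.

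A gene was called marked in a library when a peak of that library overlapped by at least 1 bp a window reaching 1000 bp to both sides of a gene end. Both ends of each gene were used, and its coverage is the number of bases of those windows that lay under peaks. The lists held 50453, 34016 and 35629 peaks in KO replicates 1 to 3, against 22066, 29945 and 21917 in WT replicates 1 to 3. Read totals are not in the lists. Ppp2ca itself had 1371, 1338 and 1381 bp of gene-end coverage in KO replicates 1 to 3, against 1076, 729 and 1077 bp in WT replicates 1 to 3, and with the deleted part unknown this does not check the genotype. The caller's genome-wide background, recovered from fold and p-value, was 0.738, 0.465 and 0.827 fragments per 200 bp in KO replicates 1 to 3, against 0.499, 0.584 and 0.498 in WT replicates 1 to 3, so that the lowest value of all belonged to a KO library. Among peaks with a −log10 p-value under 15, the median summit held 6, 6 and 9 fragments in the KO lists and 5 fragments in each WT list. A peak missing from a list was therefore not detected at this depth, which differs from the absence of the mark.

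The proteasome genes were among the commonly marked genes in both genotypes, and more of them were marked in KO cells. KO replicates 1 to 3 had a gene-end peak at 45, 43 and 44 of the 49 genes, against 32, 36 and 32 in WT replicates 1 to 3. The mean was 44.0 ± 1.0 genes in KO and 33.3 ± 2.31 genes in WT (SD, n = 3 each), or 89.8% and 68.0% of the members. Over all protein-coding genes the mean share was 42.0% in KO and 27.5% in WT, so the KO to WT ratio of marked genes was 1.32 for the proteasome genes and 1.53 for all genes. For the count over all genes the exact permutation test (two-sided) gave p = 0.1, the smallest that 3 against 3 libraries allow, so no call at 0.05 was possible for any count or gene. No test was run on the members' count.

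Mean gene-end coverage of the members was 912.6, 739.9 and 991.7 bp in KO replicates 1 to 3, against 333.4, 403.2 and 324.5 bp in WT replicates 1 to 3, a ratio of means of 2.49. The same ratio over all genes was 2.57. Every library gave the proteasome genes between 2.33 and 2.57 times the mean coverage of all genes in that library, whichever the genotype. The larger KO coverage at these genes was therefore of the size seen across the gene set as a whole. Coverage was higher in every KO than in every WT library at 34 of the 49 members (69.4%), against 25.6% of all genes. Among genes with a peak somewhere the shares were 34 of 45 members (75.6%) and 50.6% of all such genes, and among genes marked in all 6 libraries they were 18 of 24 members and 66.5% of all such genes. No member was lower in every KO library, against 0.0183% of all genes. In the per-gene two-sided exact permutation test, 34 of the 45 members tested and 5612 of 11087 genes reached the smallest p of 0.1. The smallest adjusted p was 0.198 (Benjamini-Hochberg over the 11087 genes), and no gene had an unadjusted p under 0.05.

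**Figure D1:**
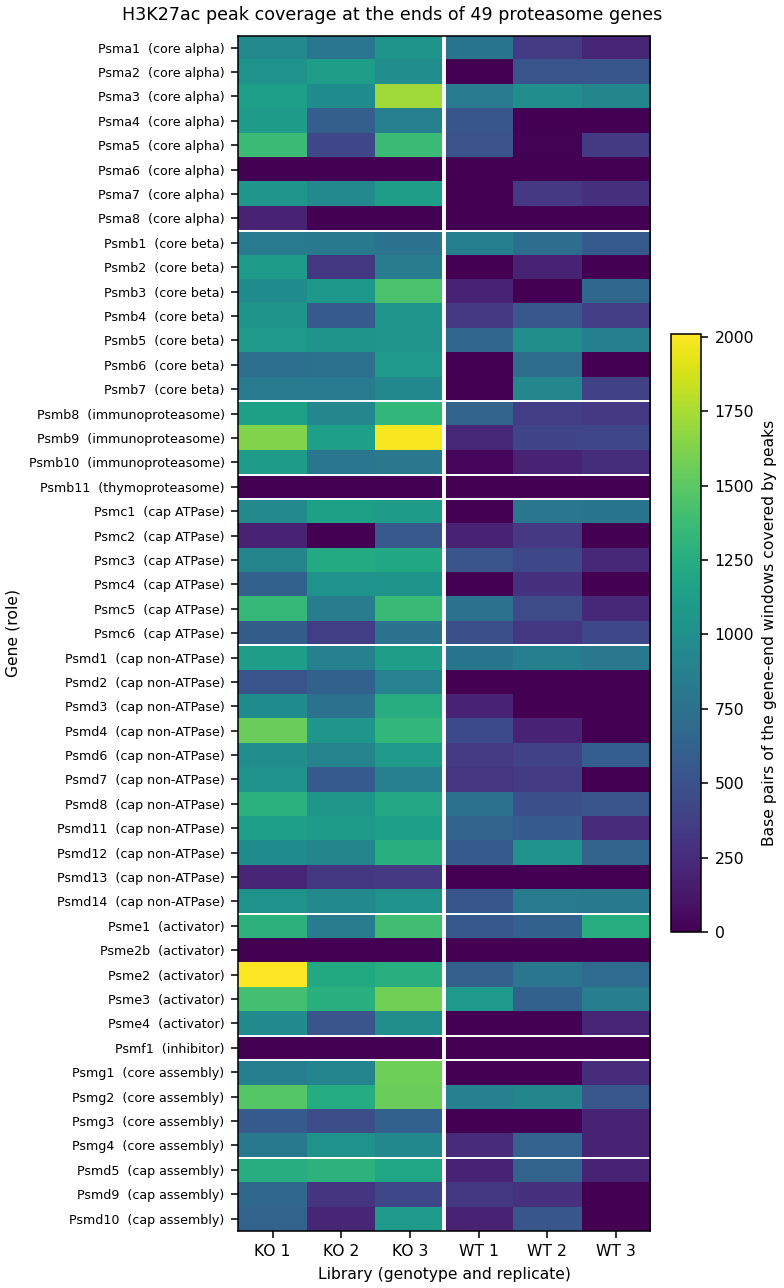
Gene-end coverage by H3K27ac peaks (bp, colour scale) of the 49 proteasome genes (rows, grouped by role) in the 3 KO and 3 WT libraries (columns, KO at the left). Of the genes shown, 43 carried a peak in every KO library and 24 in every WT library, and 4 carried none in any library.

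Exclusive marking was rare. Only Psmd2 and Psmd13 had a gene-end peak in all 3 KO and no WT library. They were 4.08% of the members, against a background share of 4.10% of all genes. Among genes marked in any library they were 2 of 45 members, against 8.10% of all such genes. Without WT replicate 1 the count was 4, without WT replicate 2 it was 5 and without WT replicate 3 it was 5, against background shares of 5.83%, 7.14% and 5.94%. No member was marked in all WT and no KO library, against 0.00914% of all genes. At the other extreme, 24 members (49.0%) were marked in all 6 libraries, against 17.0% of all genes. A further 9 were marked in all KO and 2 WT libraries and 8 in all KO and 1 WT library.

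The genotypes lay farther apart when only peaks at or under a q-value of 0.05 were counted, a threshold that depends on depth. Such peaks marked 44, 38 and 44 members in KO replicates 1 to 3, against 15, 10 and 11 in WT replicates 1 to 3. The ratio of means was 3.50 for the members and 3.40 for all genes. At this threshold 18 members (36.7%) were marked in all KO and no WT library, against 12.4% of all genes. Among genes marked in any library they were 18 of 44 members, against 29.0% of all such genes. The 18 members were Psmb10, 4 alpha subunits, 3 beta subunits, 8 cap subunits and 2 core assembly factors. Psmd1 and Psme2 were the 2 members marked in all 6 libraries at this threshold, 4.08% of the members against 4.37% of all genes. Of the 49 members, 28 had no such peak in any WT library.

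**Figure D2:**
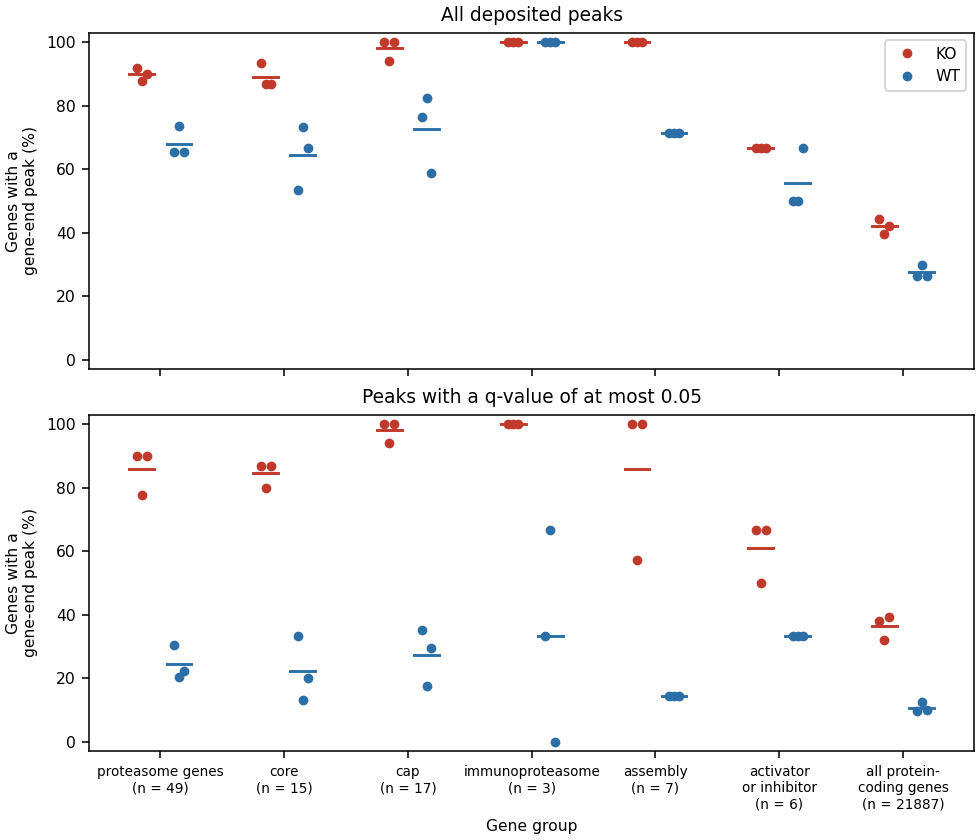
Share of genes (%) with a gene-end peak in each library (points, KO left of WT, bars for the group means) for the proteasome genes, their classes and all protein-coding genes, with all deposited peaks and with those at or under a q-value of 0.05. With all peaks the 3 immunoproteasome genes were marked in every library, and at the stricter threshold the proteasome genes averaged 85.7% in KO and 24.5% in WT.

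All 3 immunoproteasome genes were marked in every library, but over longer stretches in KO than in WT cells. Their mean coverage was 1291.7, 950.3 and 1375.7 bp in KO replicates 1 to 3, against 302.0, 327.7 and 341.3 bp in WT replicates 1 to 3. The means were 1205.9 ± 225.3 bp in KO and 323.7 ± 20 bp in WT (SD, n = 3 each), a ratio of 3.73. The same ratio was 2.34 for the core, 2.42 for the cap and 2.57 for all genes. It was 3.07 for the assembly factors, 2.02 for the activator and inhibitor genes and 3.78 for the 10 erythroid markers described below. Within a library, the immunoproteasome genes had 1.44, 1.39 and 1.44 times the mean coverage of the core genes in KO replicates 1 to 3, against 0.955, 0.777 and 0.992 times in WT replicates 1 to 3. With all peaks the KO and WT values of that within-library ratio do not overlap. It rests on 3 genes, 2 of them close together on chromosome 17, and the difference between classes was not tested. Against the cap genes the ratios were 1.42, 1.17 and 1.33 in KO and 0.779, 0.753 and 1.09 in WT. Among genes marked in all 6 libraries the median log2 ratio of KO to WT coverage was 2.14 for the immunoproteasome (range 1.34 to 2.45), 0.76 for 6 core genes, 1.01 for 9 cap genes and 0.92 for all 3713 genes. Counting peaks at or under a q-value of 0.05, 3 of the 3 genes were marked in each KO library, against 1, 2 and 0 in WT replicates 1 to 3. At that threshold the coverage ratio of KO to WT was 7.34 for the immunoproteasome, 6.94 for the core and 6.44 for the cap. It was 7.97 for the assembly factors, 3.13 for the activator and inhibitor genes and 5.1 for all genes. The within-library ratio to the core then overlapped between genotypes. In WT replicate 2 the immunoproteasome had 261.0 bp against 85.6 bp for the core. In WT replicate 3 it had 0 bp against 81.5 bp.

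The promoters of these genes are shown because peaks covered more of them in KO than in WT libraries, except that the Psmb10 promoter was at 0% in KO replicate 2 as in WT. Each sequence covers the 250 bases before and 50 from the start site in RefSeq GRCm38.p6, 5′ to 3′ on the gene's strand. Capitals mark matches, on either strand, to the motifs searched. These were CCAAT, TGACNNNGC (the core of the antioxidant response element), CCGGAAG (ETS factors), GGGCGG (the GC box), the core of the interferon response element and the NRF1 motif. NRF1 stands here for nuclear respiratory factor 1, not for Nfe2l1. The promoters lie at chr17:34197945-34198244 on the plus strand (Psmb8), chr17:34187281-34187580 on the minus strand (Psmb9) and chr8:105938343-105938642 on the minus strand (Psmb10).
Psmb8: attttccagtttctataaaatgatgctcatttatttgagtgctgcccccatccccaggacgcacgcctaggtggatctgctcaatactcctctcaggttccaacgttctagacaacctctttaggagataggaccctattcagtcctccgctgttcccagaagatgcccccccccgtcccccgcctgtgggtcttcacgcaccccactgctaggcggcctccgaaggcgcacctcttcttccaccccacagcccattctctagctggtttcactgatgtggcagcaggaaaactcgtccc
Psmb9: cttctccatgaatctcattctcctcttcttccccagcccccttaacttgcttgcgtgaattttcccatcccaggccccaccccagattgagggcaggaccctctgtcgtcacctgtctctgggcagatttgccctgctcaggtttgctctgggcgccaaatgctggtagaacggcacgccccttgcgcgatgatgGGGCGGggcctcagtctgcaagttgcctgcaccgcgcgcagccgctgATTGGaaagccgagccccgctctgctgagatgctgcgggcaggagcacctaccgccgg
Psmb10: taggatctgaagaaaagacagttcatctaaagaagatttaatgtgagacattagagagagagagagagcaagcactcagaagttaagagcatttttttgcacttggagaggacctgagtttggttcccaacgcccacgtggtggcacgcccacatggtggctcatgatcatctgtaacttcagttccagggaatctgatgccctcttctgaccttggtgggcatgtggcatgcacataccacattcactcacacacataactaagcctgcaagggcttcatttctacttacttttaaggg

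Psmb9, a catalytic subunit, had a coverage of 1630, 1135 and 1989 bp in KO replicates 1 to 3, against 234, 418 and 428 bp in WT replicates 1 to 3. The ratio was 4.40, and the exact permutation p was 0.1 (adjusted p = 0.198), with every KO library above every WT library. All 300 bp of its promoter lay under a peak in each KO library, against 0%, 61.7% and 0% in WT replicates 1 to 3. In KO cells the peak ran across the start site, as in KO replicate 2 from 487 bp upstream to 647 bp downstream. The WT peaks nearest the start site lay upstream of it, from 484 to 251 bp in WT replicate 1, from 483 to 66 bp in WT replicate 2 and from 486 to 259 bp in WT replicate 3. Psmb9 starts back to back with Tap1, the peptide transporter of antigen presentation, and their windows overlap, so the coverage cannot be assigned to either gene alone. The peak summits held 25, 19 and 33 fragments in KO replicates 1 to 3, against 6, 8 and 7 fragments in WT replicates 1 to 3.

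Psmb8, the subunit that replaces Psmb5, had a coverage of 1142, 929 and 1330 bp in KO replicates 1 to 3, against 643, 365 and 332 bp in WT replicates 1 to 3. The ratio was 2.54 (exact permutation p = 0.1, adjusted p = 0.198), and the groups did not overlap. Its windows overlap those of Tap1, at the far end of that gene. Its promoter was covered to 100%, 46.0% and 100% in KO replicates 1 to 3, against 0%, 8.67% and 0% in WT replicates 1 to 3. The WT peaks lay 72 to 714 bp downstream of the start site in WT replicate 1 and 388 to 719 bp downstream in WT replicate 3, while that of WT replicate 2 lay 589 to 225 bp upstream. Thus the WT libraries did not share a position of the peak. Its fold over background, the authors' value, was 3.14 to 4.56 in KO and 2.80 to 4.05 in WT.

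Psmb10, the subunit that replaces Psmb7, had a coverage of 1103, 787 and 808 bp in KO replicates 1 to 3, against 29, 200 and 264 bp in WT replicates 1 to 3. The ratio of 5.47 was the highest of the 3 genes (exact permutation p = 0.1, adjusted p = 0.198) and rank 8 of the 42 members that have a ratio. Psmb9 had rank 11 and Psmb8 rank 21. Its promoter was covered to 50.7%, 0% and 21.3% in the KO libraries and to 0% in each WT library. The KO peaks lay mainly downstream of the start site, from 78 to 840 bp for the strongest peak of KO replicate 2. The WT peaks began 972, 680 and 737 bp downstream in WT replicates 1 to 3, and their q-values were above 0.05. Psmb10 shares its windows with Ctrl and Lcat.

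**Figure D3:**
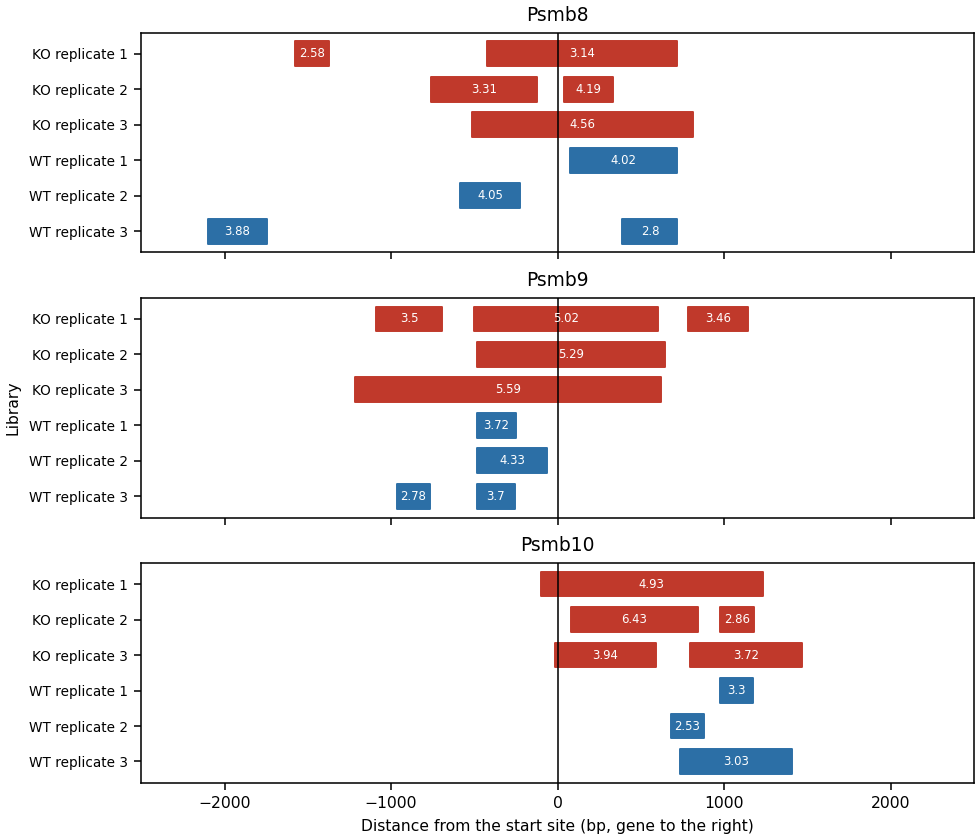
Peaks (bars, with the authors' fold over background in white) around the start sites of Psmb8, Psmb9 and Psmb10 in the 3 KO and 3 WT libraries (KO above WT). The x axis is the distance from the start site in bp with the gene to the right. The KO peaks at Psmb9 ran across the start site, and the WT peaks nearest it lay upstream.

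Among the alpha subunits, which form the outer rings and the gate of the core, 6.33 ± 0.577 of 8 genes were marked in KO and 4.67 ± 0.577 of 8 in WT (SD, n = 3 each). Mean coverage was 784.1 bp in KO and 298.6 bp in WT, a ratio of 2.63. Coverage was higher in every KO than in every WT library at 4 of the 8, or 57.1% of the 7 with a peak, against 50.6% of all genes with a peak. Psma7 had 1054, 945 and 1119 bp in KO replicates 1 to 3, against 0, 331 and 287 bp in WT replicates 1 to 3, and it starts within 1 kb of Ss18l1 on the opposite strand. Psma5 had 1366, 426 and 1366 bp in KO replicates 1 to 3, against 517, 12 and 343 bp in WT replicates 1 to 3, so that its groups overlapped (exact permutation p = 0.2, adjusted p = 0.324). Psma8, the alpha subunit of the testis, had a single 200 bp peak in KO replicate 1 and none elsewhere.

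At 2 alpha genes the window around a listed start site inside the RefSeq record carried the mark, at Psma3 besides the gene end and at Psma6 in place of it. Psma3 had a coverage of 1136, 980 and 1724 bp in KO replicates 1 to 3, against 833, 983 and 919 bp in WT replicates 1 to 3, with overlapping groups (exact permutation p = 0.2, adjusted p = 0.324). The best gene-end peaks of Psma3 lay at the low-coordinate end of its RefSeq record, with summits 5351 to 5944 bp upstream of the listed start site. The listed start site, at chr12:70974373-70974672 on the plus strand, carried peaks of its own, which covered 100%, 95.7% and 83.7% of the promoter in KO replicates 1 to 3, against 78.3%, 78.3% and 25.7% in WT replicates 1 to 3. This promoter is shown because it was covered in all 6 libraries and holds 3 matches to CCAAT.
Psma3: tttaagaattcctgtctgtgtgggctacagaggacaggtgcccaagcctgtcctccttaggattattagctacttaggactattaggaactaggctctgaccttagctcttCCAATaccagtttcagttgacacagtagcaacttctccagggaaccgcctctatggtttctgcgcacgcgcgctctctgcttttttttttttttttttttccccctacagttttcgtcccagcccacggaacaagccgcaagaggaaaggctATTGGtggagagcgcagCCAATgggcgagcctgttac
Psma6 had no gene-end peak in any library, yet the window around the second of its RefSeq start sites held peaks in all 6. This site lies at position 55398825 on chromosome 12, well inside the record. It was under a peak in every library but WT replicate 1, whose peaks there ended at 55398636 and began again at 55398913. The coverage of the windows around the start sites of Psma6 was 1722, 1475 and 1497 bp in KO replicates 1 to 3, against 1140, 1255 and 1331 bp in WT replicates 1 to 3. Every KO library exceeded every WT library there as well.

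All 7 constitutive beta subunits were marked in each KO library, and 5.00 ± 1.00 were marked in WT (SD, n = 3). Mean coverage was 913.2 bp in KO and 431.6 bp in WT, a ratio of 2.12, and 5 of the 7 were higher in every KO library (71.4%, against 50.6% of all genes with a peak). Psmb5, which carries the chymotrypsin-like site, had the highest fold in its lowest library among the 3 of them marked in all 6. Its coverage was 1086, 1041 and 1051 bp in KO replicates 1 to 3, against 665, 993 and 871 bp in WT replicates 1 to 3, a ratio of 1.26 (exact permutation p = 0.1, adjusted p = 0.198). Its promoter, at chr14:54617946-54618245 on the minus strand, lay entirely under a peak in all 6 libraries, and is shown as that of the constitutive partner of Psmb8. The match in capitals is to TGACNNNGC.
Psmb5: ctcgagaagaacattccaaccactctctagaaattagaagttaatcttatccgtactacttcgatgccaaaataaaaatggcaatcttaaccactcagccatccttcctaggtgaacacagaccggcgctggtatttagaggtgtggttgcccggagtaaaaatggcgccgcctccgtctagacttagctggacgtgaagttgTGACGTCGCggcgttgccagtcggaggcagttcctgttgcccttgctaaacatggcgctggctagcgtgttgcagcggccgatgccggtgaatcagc
The authors' fold at Psmb5 was 6.78 to 8.33 in KO and 3.98 to 4.65 in WT. Psmb1 was the member with the lowest ratio, 1.11, with 828, 816 and 767 bp in KO replicates 1 to 3, against 871, 728 and 570 bp in WT replicates 1 to 3. These groups overlapped (exact permutation p = 0.6, adjusted p = 0.754). Psmb1 was singled out after its values were seen, and its window is shared with Tbp.

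The other named beta genes differed more. Psmb4 had 1040, 576 and 1047 bp in KO replicates 1 to 3, against 337, 546 and 366 bp in WT replicates 1 to 3, a ratio of 2.13 with KO replicate 2 close to WT replicate 2. Psmb3 had 980, 1070 and 1432 bp in KO replicates 1 to 3, against 200, 0 and 675 bp in WT replicates 1 to 3. Psmb2 had 1092, 327 and 845 bp in KO replicates 1 to 3, against 0, 201 and 0 bp in WT replicates 1 to 3. All 3 were higher in every KO library, with an exact permutation p of 0.1 and an adjusted p of 0.198 each. Psmb3 and Psmb2 were named for their large difference. Psmb2 rested on a single WT peak of 6 fragments, so its ratio of 11.3 is little constrained.

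The cap was marked nearly in full in KO cells. Of its 17 genes, 17, 16 and 17 were marked in KO replicates 1 to 3, against 13, 14 and 10 in WT replicates 1 to 3. Mean coverage was 916.5 ± 111.8 bp in KO and 378.3 ± 62.1 bp in WT (SD, n = 3 each), a ratio of 2.42 against 2.57 for all genes, and 14 of the 17 genes were higher in every KO library (82.4%, against 50.6% of all genes with a peak). For the 15 core genes the means were 844.4 ± 140.4 bp in KO and 360.6 ± 54.8 bp in WT, a ratio of 2.34, with 9 of 15 higher in every KO library, or 64.3% of the 14 with a peak. The cap had 1.01, 1.18 and 1.08 times the coverage of the core in KO replicates 1 to 3, against 1.23, 1.03 and 0.907 times in WT replicates 1 to 3. These ranges overlap, so cap and core were not separated by genotype.

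Of the 6 ATPases, which pull the substrate into the core, 5.67 ± 0.577 were marked in KO and 4.67 ± 1.15 in WT (SD, n = 3 each). Psmc2, unmarked at its gene ends in KO replicate 2 and WT replicate 3, also has a listed start site inside the record. The windows around its start sites held 1282, 1164 and 1400 bp in KO replicates 1 to 3, against 671, 337 and 484 bp in WT replicates 1 to 3. Psmc4 had 627, 1026 and 1043 bp in KO replicates 1 to 3, against 0, 284 and 0 bp in WT replicates 1 to 3. Psmc3 had 917, 1225 and 1193 bp in KO replicates 1 to 3, against 520, 435 and 225 bp in WT replicates 1 to 3. Both were named for their large difference and were higher in every KO library (exact permutation p = 0.1, adjusted p = 0.198). Psmc6 had 589, 372 and 763 bp in KO replicates 1 to 3, against 488, 329 and 437 bp in WT replicates 1 to 3, and its groups overlapped (exact permutation p = 0.3, adjusted p = 0.452). Psmc5 had 1336, 844 and 1357 bp in KO replicates 1 to 3, against 755, 469 and 235 bp in WT replicates 1 to 3, with no overlap (exact permutation p = 0.1, adjusted p = 0.198). Its promoter, at chr11:106255935-106256234 on the plus strand, is shown because it was covered to 100% in each KO library, against 19.3%, 92.7% and 78.3% in WT replicates 1 to 3. Psmc5 starts within 1 kb of Ftsj3 on the opposite strand. Its promoter holds 1 match to the GC box.
Psmc5: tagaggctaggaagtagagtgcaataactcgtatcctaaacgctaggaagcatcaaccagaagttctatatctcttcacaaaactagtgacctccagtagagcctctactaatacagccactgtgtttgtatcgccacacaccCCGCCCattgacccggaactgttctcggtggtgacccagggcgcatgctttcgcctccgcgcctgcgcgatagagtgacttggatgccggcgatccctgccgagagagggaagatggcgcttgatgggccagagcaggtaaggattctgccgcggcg

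All 11 other cap subunits were marked in each KO library, and 7.67 ± 1.53 were marked in WT (SD, n = 3). Psmd1, the large scaffold subunit, had the highest fold of the members marked throughout. Its coverage was 1122, 884 and 1130 bp in KO replicates 1 to 3, against 783, 868 and 803 bp in WT replicates 1 to 3, a ratio of 1.28 with no overlap (exact permutation p = 0.1, adjusted p = 0.198). The authors' fold at Psmd1 was 8.39 to 9.48 in KO and 5.65 to 8.93 in WT, and the summits held 46, 26 and 51 fragments in KO replicates 1 to 3, against 19, 12 and 16 fragments in WT replicates 1 to 3. Psmd2, the other large scaffold subunit, stood at the opposite end. It had 519, 620 and 890 bp in KO replicates 1 to 3 and no gene-end peak in any WT library, with summits of 14, 9 and 9 fragments. Psmd13, a lid subunit, had 209, 326 and 331 bp in KO replicates 1 to 3 and likewise no gene-end peak in any WT library. Both have an exact permutation p of 0.1 and an adjusted p of 0.198.

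The promoters of these 3 cap genes are set side by side because Psmd1 was covered to 100% in all 6 libraries and the other 2 in KO libraries alone. They lie at chr1:86064369-86064668 (Psmd1), chr16:20651402-20651701 (Psmd2) and chr7:140882144-140882443 (Psmd13), all on the plus strand. Capitals mark overlapping GC boxes in Psmd1, an ETS motif and 2 GC boxes in Psmd2, and an ETS motif in Psmd13.
Psmd1: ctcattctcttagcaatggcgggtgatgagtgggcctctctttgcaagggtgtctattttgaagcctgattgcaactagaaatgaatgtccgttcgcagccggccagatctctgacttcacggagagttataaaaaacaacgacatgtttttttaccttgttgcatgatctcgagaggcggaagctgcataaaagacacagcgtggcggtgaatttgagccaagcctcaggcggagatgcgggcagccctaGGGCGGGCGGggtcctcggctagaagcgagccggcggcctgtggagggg
Psmd2: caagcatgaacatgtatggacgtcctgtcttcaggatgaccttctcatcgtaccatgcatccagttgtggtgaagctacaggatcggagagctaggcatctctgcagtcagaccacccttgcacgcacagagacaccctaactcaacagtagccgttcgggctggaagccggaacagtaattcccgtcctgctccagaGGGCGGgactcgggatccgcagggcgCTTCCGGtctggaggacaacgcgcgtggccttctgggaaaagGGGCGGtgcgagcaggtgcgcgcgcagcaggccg
Psmd13: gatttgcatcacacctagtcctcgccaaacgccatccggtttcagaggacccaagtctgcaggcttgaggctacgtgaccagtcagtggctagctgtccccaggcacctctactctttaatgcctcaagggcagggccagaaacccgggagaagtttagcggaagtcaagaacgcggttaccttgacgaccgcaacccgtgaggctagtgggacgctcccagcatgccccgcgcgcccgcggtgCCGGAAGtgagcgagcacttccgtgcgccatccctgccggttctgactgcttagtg
The Psmd2 promoter was covered to 92.7%, 100% and 34.0% in KO replicates 1 to 3, and that of Psmd13 to 34.3%, 0% and 78.3%. The KO-only call of Psmd2 depends on the window. WT replicate 2 had a peak at chr16:20652547-20652746 and WT replicate 1 at chr16:20653151-20653443, inside the gene and beyond 1000 bp of its end. Measured from the listed start site, which lies inside the record, WT replicate 2 had 106 bp of coverage at Psmd2. Psmd13 shares its windows with Sirt3 and Cox8b and starts within 1 kb of Sirt3 on the opposite strand.

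Other cap subunits fell between these extremes. Psmd4, a ubiquitin receptor, had 1549, 1055 and 1329 bp in KO replicates 1 to 3, against 453, 200 and 0 bp in WT replicates 1 to 3. Psmd3, a lid subunit, had 980, 753 and 1249 bp in KO replicates 1 to 3, against 200, 0 and 0 bp in WT replicates 1 to 3. Psmd6, also in the lid, had 986, 898 and 1081 bp in KO replicates 1 to 3, against 350, 388 and 603 bp in WT replicates 1 to 3. In all 3 the groups did not overlap (exact permutation p = 0.1, adjusted p = 0.198). Psmd4 and Psmd3 were named for their large difference. Coverage was higher in every KO library at 50.6% of all genes with a peak. The ratio of Psmd3, 14.9, was the highest of the 42 members with coverage in WT, and it rests on a single WT peak of 4 fragments.

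The activators are rings that open the core without the cap. The interferon-inducible pair Psme1 and Psme2 and the nuclear Psme3 were marked in all 6 libraries. Psme2 had 2009, 1221 and 1261 bp in KO replicates 1 to 3, against 617, 792 and 699 bp in WT replicates 1 to 3, and starts within 1 kb of Rnf31 on the opposite strand. Psme3 had 1406, 1273 and 1580 bp in KO replicates 1 to 3, against 1083, 625 and 859 bp in WT replicates 1 to 3. Psme4, a large activator that acts in the nucleus, had 972, 532 and 994 bp in KO replicates 1 to 3, against 0, 0 and 207 bp in WT replicates 1 to 3. These 3 were higher in every KO library (exact permutation p = 0.1, adjusted p = 0.198), as were 50.6% of all genes with a peak. Psme2 and Psme4 were named for their large difference. Psme1 had 1293, 843 and 1392 bp in KO replicates 1 to 3, against 550, 624 and 1249 bp in WT replicates 1 to 3, and its groups overlapped (exact permutation p = 0.2, adjusted p = 0.324). It is given as the partner of Psme2, outside the rule for named genes. Mean coverage of the 6 activator and inhibitor genes was 820.9 bp in KO and 405.8 bp in WT, a ratio of 2.02, the lowest of the classes with a ratio. Psme2b had no gene-end peak in any library. Psmf1, a proteasome inhibitor, also had none at its gene ends, and around its listed start site it had 237, 0 and 302 bp in KO replicates 1 to 3, against 0 bp in each WT library.

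All 7 assembly factors were marked in each KO library and 5 of 7 in each WT library. Mean coverage was 914.3 ± 137.4 bp in KO and 298.1 ± 118.6 bp in WT (SD, n = 3 each), a ratio of 3.07. Psmg1 and Psmg2 encode partner chaperones of the alpha ring. Psmg1 had 870, 909 and 1569 bp in KO replicates 1 to 3, against 0, 0 and 256 bp in WT replicates 1 to 3. Psmg2 had 1482, 1247 and 1554 bp in KO replicates 1 to 3, against 882, 920 and 543 bp in WT replicates 1 to 3. Psmd5, a chaperone of the ATPase ring, had 1253, 1298 and 1192 bp in KO replicates 1 to 3, against 200, 641 and 200 bp in WT replicates 1 to 3. None of these 3 overlapped between genotypes (exact permutation p = 0.1, adjusted p = 0.198). Of the 7 assembly factors, 5 (71.4%) were higher in every KO library. Psmd9 and Psmd10 overlapped between genotypes (exact permutation p = 0.2, adjusted p = 0.324 each). Psmg1 and Psmd5 were named for their large difference. Coverage was higher in every KO library at 50.6% of all genes with a peak. The partners Psmg1 and Psmg2 had ratios as far apart as 13.1 and 1.83. The thymus gene Psmb11, which is specific to thymic epithelium, had no gene-end peak in any library. With Psma6, Psme2b and Psmf1 it made up the 4 of 49 members without such a peak, against 49.3% of all genes.

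**Figure D4:**
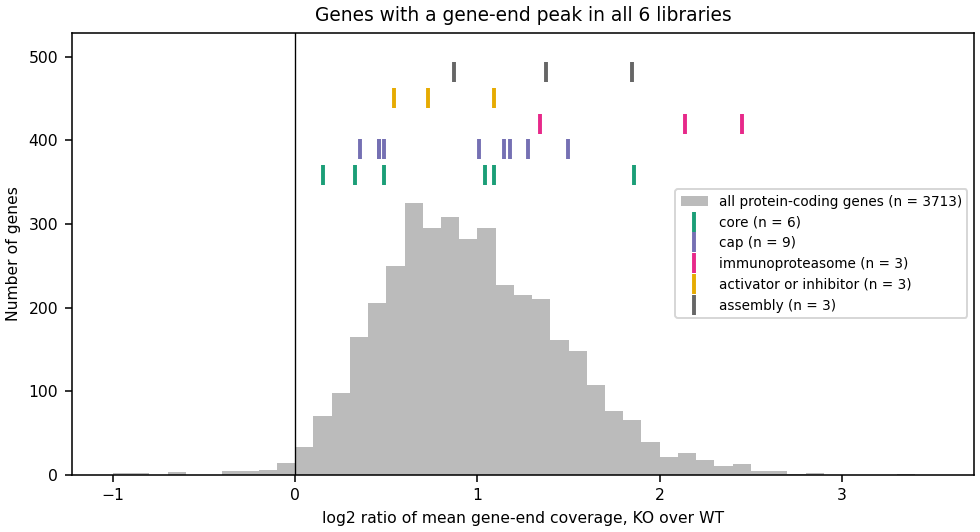
Distribution of the log2 ratio of KO to WT mean gene-end coverage over the 3713 genes marked in all 6 libraries (histogram, number of genes), with the 24 proteasome genes among them as ticks by class. The median was 1.07 for the proteasome genes and 0.92 for all genes, and the 3 immunoproteasome genes lay between 1.34 and 2.45.

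The mark at proteasome genes sat at the start of the gene and leaned into it. Strand was known for 41 members with 44 listed start sites. No member in any library was marked at its far end alone, and between 27 and 35 of the 41 were marked at the start end alone. The start site itself lay under a peak at 86.4%, 70.5% and 90.9% of the sites in KO replicates 1 to 3, against 36.4%, 43.2% and 34.1% in WT replicates 1 to 3. The means were 82.6% ± 10.7 in KO and 37.9% ± 4.73 in WT (SD, n = 3 each), a ratio of 2.18, and over all start sites they were 30.7% in KO and 13.1% in WT, a ratio of 2.34. In every library more of the kilobase downstream was covered than of the kilobase upstream. The mean downstream share at the members was 60.8%, 51.4% and 62.8% in KO replicates 1 to 3, against 23.9%, 22.8% and 23.8% in WT replicates 1 to 3, and the upstream share was 31.7%, 24.1% and 33.9% in KO, against 10.9%, 16.9% and 11.8% in WT. Over all genes in KO replicate 1 the same shares were 21.7% downstream and 17.0% upstream. With windows of 1000 bp at the start sites in place of the gene ends, 1 of the 41 members was marked in KO alone (4.38% of all genes with a start site), 23 in all 6 libraries (18.7% of all) and 31 had higher coverage in every KO library (27.9% of all). At 3000 bp downstream no member's site was covered in any library.

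**Figure D5:**
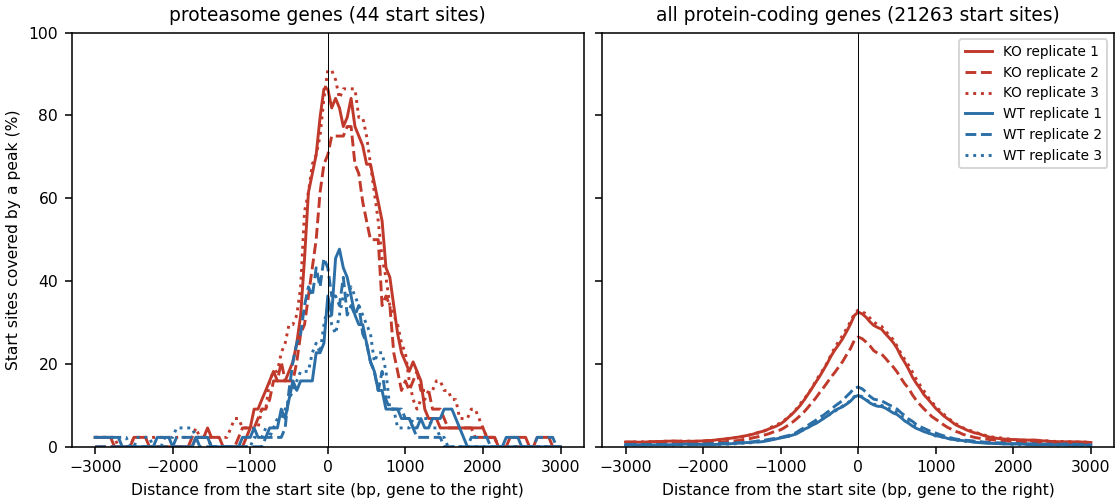
Share of start sites (%) under a peak by distance from the start site (bp, gene to the right) for the proteasome genes and for all protein-coding genes. KO libraries are red and WT libraries blue, with solid, dashed and dotted lines for replicates 1, 2 and 3. At the start site the proteasome genes lay between 70.5% and 90.9% in KO and between 34.1% and 43.2% in WT.

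The best peaks at the members were also wider in KO than in WT. Their median width was 986, 751 and 1072 bp in KO replicates 1 to 3, against 374, 426.5 and 354.5 bp in WT replicates 1 to 3. Over all marked genes it was 830.5, 633 and 914 bp in KO, against 375, 388 and 371 bp in WT. Members' peaks were thus wider than those of other marked genes in the 3 KO lists, but not in WT replicates 1 and 3. The summits held a median of 19, 12 and 21 fragments in KO replicates 1 to 3, against 6.5, 6 and 5.5 in WT replicates 1 to 3. At 13 of the 24 members marked in all 6 libraries, the best peaks of all libraries had at least 1 base in common.

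Among the motifs searched, CCGGAAG had the largest gap in share between the members' promoters and all promoters. It lay in 15 of the 44 members' promoters (34.1%), against 11.6% of 21263 promoters of all genes. Of the 15 cap promoters 10 held it (66.7%), against 1 of the 12 core promoters (8.33%) and 0 of the 3 immunoproteasome promoters. Promoters of the same gene were counted separately. The 15 cap promoters belong to 14 genes, and both promoters of Psmc2 held the motif. The interferon response element core lay in 5 of the members' promoters (11.4%), those of Psmb3, Psmd4, Psmd9, Psme1 and Psmg4, against 3.35% of all promoters, and in 0 of the 3 immunoproteasome promoters. CCAAT lay in 31.8% of the members' promoters, against 38.2% of all, TGACNNNGC in 13.6% against 13.0%, GGGCGG in 54.5% against 46.2%, and the NRF1 motif in 4.55% against 1.33%. These are matches of letters in a window of 300 bases, not sites of binding, and no test was run on them. The NRF1 motif is that of nuclear respiratory factor 1, not of Nfe2l1, the regulator of proteasome genes described below. The median GC content was 57.3% for the members and 56.3% for all promoters.

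Of 33 other genes of the pathway, 32 were found in the gene table. Their count of marked genes was 30.3 ± 1.15 in KO and 26.3 ± 1.15 in WT (SD, n = 3 each), 22 were marked in all 6 libraries, 19 were higher in every KO library, and none was exclusive to either genotype. As shares of the list these are 68.8% in all 6 libraries, against 17.0% of all genes, and 0 KO-only, against 4.10%. Of the 31 with a peak somewhere, 61.3% were higher in every KO library, against 50.6% of all such genes. Psmc3ip, a meiotic recombination factor that the list also holds, adds 1 to both counts. Mean coverage was 1083.5 bp in KO and 537.3 bp in WT, a ratio of 2.02. Nfe2l1, the transcription factor that raises proteasome genes when the proteasome is inhibited, had 1554, 1013 and 1346 bp in KO replicates 1 to 3, against 776, 780 and 1102 bp in WT replicates 1 to 3, with overlapping groups. Pomp, which helps beta subunits into the core, had 1062, 1047 and 952 bp in KO replicates 1 to 3, against 538, 1020 and 388 bp in WT replicates 1 to 3, also with overlap. The peptide transporter genes lie beside Psmb8 and Psmb9. Tap1 had 2168, 1768 and 2383 bp in KO replicates 1 to 3, against 234, 783 and 654 bp in WT replicates 1 to 3, and Tap2 had 738, 649 and 1067 bp in KO replicates 1 to 3, against 342, 0 and 253 bp in WT replicates 1 to 3. At both the groups did not overlap.

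Gene-end peaks at markers of cell types were counted in the same way. Of 16 stem cell markers 4.67 ± 1.15 were marked in KO and 5.00 ± 1.00 in WT (SD, n = 3 each), and Ly6a, Slamf1, Cd34, Mecom, Hlf, Gata2 and Erg had no gene-end peak in any library, while Tal1, Runx1 and Lyl1 had one in all 6. Of 10 erythroid markers 5.33 ± 0.577 were marked in KO and 2.67 ± 1.15 in WT, and their mean coverage was 311.6 to 460.0 bp in the KO libraries and 91.7 to 101.9 bp in the WT libraries, with Gata1 and Alas2 unmarked. Of 10 myeloid markers 5.67 ± 2.08 were marked in KO and 3.33 ± 0.577 in WT, and their mean coverage was 195.6 to 327.3 bp in KO and 72.7 to 135.3 bp in WT, with Elane and Ly6g unmarked. Of 10 lymphoid markers 2.67 ± 1.15 were marked in each genotype, with coverage of 126.7 to 248.9 bp in KO and 56.6 to 188.8 bp in WT, and Pax5, Cd3e, Cd4 and Cd8a were unmarked. Markers of other organs were marked in 0 of 10 cases in KO and 0.667 of 10 on average in WT. The part of cell composition in the proteasome gene values was not tested.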

How the data were processed

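H3K27ac CUT&RUN peak lists of 3 KO and 3 WT libraries were analysed. The submitters' processing notes name MACS2, BWA and Trimmomatic, with HOMER, ChIPseeker and deepTools, and the builds GRCm38 and mm10. The sources used here state no versions, parameters or control library. The deposited ratio is the fold at a peak's summit over the caller's background. Each deposited peak also has a score, a −log10 p-value and, from the authors' correction, a −log10 q-value. All of these depend on a library's depth and served only for describing, ranking or filtering within a list. Peaks were listed per library, not on pooled samples.

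Gene positions and promoter sequences came from RefSeq GRCm38.p6 tables, the build of the peaks. Of the 49 members, 41 were in the promoter table and 8 were not. Peaks were intersected with windows of 1000 bp around gene ends in Python 3.11.15 with numpy 2.4.6 and pandas 2.3.3, and gene coverage was tested by exact permutation (two-sided) over 20 assignments of the libraries, adjusted by Benjamini-Hochberg over the 11087 genes marked in any library. No p was computed for a list. Summit pileups and backgrounds were solved from fold and p-value, taking the whole pileup that fitted best. Library medians and backgrounds used the peaks with a −log10 p-value under 15, where in 100% the whole pileup gave the p-value back within 0.002 on the −log10 scale. The same held for all 232 best peaks at the members, of which 31 had a −log10 p-value of at least 15. The coverage and test steps were tested on simulated data.

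The members, gene lists and tests were chosen with earlier results of these data known. Named genes were Psmb8, Psmb9 and Psmb10, members exclusive to a genotype or marked in no library, and per role the 2 members marked in all 6 libraries with the highest lowest-library fold and the 2 with the largest difference in mean coverage. Genes named for their difference were chosen on the values that were tested, so their separation between genotypes is not separate evidence. Psmd2 and Psmd13 promoters were added after their values were seen. Alternatives were other windows, a q-value of 0.05, −log10 q-values of at least 5 or 10, lists cut to the same length, other overlap rules, leaving out each library, a replicate block and, added after the data were seen, windows at start sites. The labels do not say whether replicate numbers pair the libraries. Coverage deviations of same-numbered libraries correlated at -0.002, -0.017 and -0.010 over 11087 genes, which are not independent replicates. Those of different-numbered libraries correlated at -0.019 to 0.027. Such values cannot decide whether libraries were handled in pairs. P-values measure only the spread between these libraries. Not every gene of the marker lists is reported here.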

Additional observations from a re-analysis of the deposited data

How the results depend on the processing

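The members' values kept their direction in 17 alternatives and the difference over all genes in the 9 run for it, except that 0 members were exclusive to KO with 2000 bp windows. The share of all genes follows in brackets. The KO minus WT difference in marked members, 10.67, was 13.33 at 500 bp, 8.667 at 2000 bp, 8.0 with the gene body, 25.67 at a −log10 q-value of at least 5, 30.0 at a q-value of at most 0.05 and 8.667 at start sites, a setting chosen after seeing the data. The count of KO-only members, 2, was 4 at 500 bp (4.48%), 0 at 2000 bp (4.05%), 1 with the gene body (3.15%), 13 and 3 at −log10 q-values of at least 5 and 10 (6.23% and 1.04%), 18 at a q-value of at most 0.05 (12.4%) and 1 at start sites (4.38% of genes with one). The count of members higher in every KO library, 34, was 14 (7.58%) and 4 (1.2%) at −log10 q-values of at least 5 and 10. With equal numbers of peaks per library, 21917, the 3 values were 11.33, 2 (2.91%) and 32 (21.4%). For other settings the cause of a shift was not tested. Leaving out 1 library at a time gave 10.0 to 12.0 for the difference, 2 to 5 for the KO-only members and 34 to 40 for the members higher in KO, and 2919 to 3435 for all genes against 3170.7. With the replicate block the values were 10.67, 2, 38 and 3170.7, with a paired exact permutation p of 0.25 for all genes, the smallest it allows. Few fragments per WT peak limit the detection of weak marks, and ratios above 8 rest on 1 marked WT library.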

Other observations

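Of the 41 proteasome genes with a listed start site, 7 (17.1%) had the start of another gene on the opposite strand within 1 kb, against 9.61% of 17492 genes. The pairs were Psma7 with Ss18l1, Psmd13 with Sirt3, Psmc5 with Ftsj3, Psma2 with Mrpl32, Psme2 with Rnf31, Psmb9 with Tap1 and Psmd10 with Atg4a. The gene-end coverage of these 7 members ranged from 209 bp (Psmd13) to 2009 bp (Psme2) in KO replicate 1. In all, 25 of the 49 members shared a window with another protein-coding gene.

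Genes of ubiquitin supply and delivery, from the pathway list, were steadily marked. Ubb had 1523, 1734 and 1605 bp of gene-end coverage in KO replicates 1 to 3, against 1178, 1282 and 806 bp in WT replicates 1 to 3. Ufd1, a cofactor of the segregase Vcp, had 1418, 1721 and 1762 bp in KO replicates 1 to 3, against 1250, 832 and 923 bp in WT replicates 1 to 3. Vcp itself had 1290, 1277 and 1268 bp in KO replicates 1 to 3, against 522, 1086 and 1165 bp in WT replicates 1 to 3. All 3 were marked in all 6 libraries and were higher in every KO library, as were 66.5% of all genes so marked. These 3 were picked after their values were seen. Adrm1, a ubiquitin receptor of the cap that lies outside the symbol rule, had 1248, 1047 and 1263 bp in KO replicates 1 to 3, against 403, 341 and 0 bp in WT replicates 1 to 3.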
